A study of Homo sapiens with 6 samples.

Results

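miR-10 and miR-196 are the microRNA families encoded inside the human HOX gene clusters, and their tags were followed in TGF-β1-activated LX-2 cells. The set comprised 8 mature microRNAs, chosen by name. They were both arms of miR-10a and miR-10b, the 5p arms of miR-196a and miR-196b, and 2 sequences that the authors of the tables named chr17_7541 and chr2_13876, which are miR-10a-5p and miR-10b-5p with 1 base fewer at the 3′ end. Of these 8, 5 were listed among the 463 distinct sequences of the deposited tag tables. miR-10a-3p, miR-10b-3p and miR-196b-5p were not listed.

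The co-culture group (3 libraries) held LX-2 cells treated with TGF-β1 at 10 ng/mL and then grown for 48 h beneath hUC-MSCs, which are mesenchymal stem cells from human umbilical cord, in the upper chamber of a permeable insert. The single culture group (3 libraries) held LX-2 cells treated with the same agent and grown alone. The TGF-β1 treatment is given as 24 h in the sample descriptions and as 48 h in the methods of the study. LX-2 is 1 immortalized human hepatic stellate cell line, so all 6 libraries share its genotype, and the study states that its experiments were repeated without saying whether each library came from its own culture. The p-values then measure only the spread between these libraries, which may be technical. The comparison addressed which microRNAs of activated stellate cells differ when stem cells share the medium.

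MicroRNAs are short RNAs that guide Argonaute proteins to messenger RNAs, mainly by pairing through the seed, bases 2 to 8 from the 5′ end. HOX genes encode transcription factors that set position along the body axis, and cells of mesenchymal origin often keep a HOX pattern into adult life. The miR-10 and miR-196 genes lie between or within HOX genes and are often transcribed with them. Both families are known to target HOX messages: miR-196 directs cleavage of HOXB8 RNA, and miR-10b is known for repressing HOXD10 in breast cancer cells.

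The sequences below are shown because the comparison turns on a single 3′ base and on which microRNAs share a seed. Capitals mark the seed. All come from RefSeq (GRCh38.p14) except chr17_7541, which is taken from the deposited table.
miR-10a-5p: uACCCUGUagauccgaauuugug
chr17_7541: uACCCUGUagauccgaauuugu
miR-196a-5p: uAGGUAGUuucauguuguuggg
miR-196b-5p: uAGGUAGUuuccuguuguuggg
miR-100-5p: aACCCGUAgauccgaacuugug
let-7a-5p: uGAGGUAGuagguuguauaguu

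miR-10a-5p and miR-10b-5p differ at 1 base, outside the seed. The seed ACCCUGU stood at bases 2 to 8 in 4 of the 463 sequences, the 2 annotated miR-10 forms and their 2 trimmed forms. miR-196a-5p and miR-196b-5p also share a seed and differ by A12C, counted from 1 at the 5′ end of miR-196a-5p. AGGUAGU stood at base 2 in miR-196a-5p alone. It stood 1 base further in, at base 3, in 8 listed sequences of the let-7 and miR-98 family. miR-100-5p, a relative of miR-10, matched miR-10a-5p at 19 bases in the best ungapped alignment, with a shared run of 11 bases, but its seed differs.

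In the MIR10A hairpin, shown next to place the base at which the forms differ, capitals mark annotated miR-10a-5p at positions 22 to 44. The trimmed form ends at position 43, before the final G, and the hairpin goes on with U after that G.
MIR10A: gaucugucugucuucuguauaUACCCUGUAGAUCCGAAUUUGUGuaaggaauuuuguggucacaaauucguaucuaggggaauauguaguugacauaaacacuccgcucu

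MIR10A lies in the HOXB cluster at chr17:48579838-48579947 on the minus strand (GRCh38), where GENCODE release 29 places it over an exon of a HOXB4 transcript and in an intron of HOXB3. MIR10B lies in the HOXD cluster at chr2:176150303-176150412 on the plus strand, in an intron of HOXD3 and 810 bases from HOXD4. miR-196a-5p is encoded at MIR196A1, chr17:48632490-48632559 on the minus strand in an intron of HOXB7, and at MIR196A2, chr12:53991738-53991847 on the plus strand in an intron of HOXC6. MIR196B is at chr7:27169480-27169563 on the minus strand and overlaps an exon of HOXA9. The tags of miR-196a-5p from its 2 genes cannot be told apart.

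Library totals were 325037, 604418 and 421964 tags in the co-culture group and 209043, 43956 and 47528 tags in the single culture group. Levels are given as CPM, tag counts relative to the library size after TMM scaling, a scaling between libraries that assumes most sequences do not change. TMM factors ran from 0.621 to 0.794 in co-culture libraries and from 1.42 to 1.47 in single culture libraries, so CPM differs from the share of all tags. Single culture libraries 2 and 3 stood apart in depth and profile: library 1 of the single culture group correlated with the co-culture libraries at r = 0.970 to 0.981 and with its own group at 0.914 to 0.932 (log2 CPM, a description). Differences are therefore also given without libraries 2 and 3. This leaves 1 single culture library, so these are values with no test. For the label LX-2, 4 of 5 mesenchymal microRNAs were listed, with miR-214-3p unlisted. Their sum was 0.0533% to 0.0751% of tags in co-culture and 0.121% to 0.429% in single culture. Nearly all of it was miR-143-3p, with 234, 310 and 239 of 244, 322 and 252 tags in co-culture. In single culture miR-143-3p held 237, 156 and 201 of 252, 161 and 204 tags. Both endothelial miR-126 arms were listed, at a summed 0.0116% to 0.0171% in co-culture and 0.0182% to 0.0254% in single culture. Of these, miR-126-5p had only 4, 2 and 7 tags in co-culture and 0 in each single culture library. No hepatocyte marker (of 2) and no blood marker (of 5) was listed, and of 7 epithelial markers only miR-375-3p was, with 2 tags in co-culture library 2. The part of these differences in the results was not tested.

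The miR-10a-5p tags, in both forms, were the most abundant of the set and were higher in co-culture under TMM scaling. Annotated and trimmed tags together had 7244, 8144 and 7545 CPM in co-culture libraries, against 5108, 3765 and 3866 CPM in single culture libraries. Every co-culture library was higher than every single culture library. The means were 7644 ± 459 CPM in co-culture and 4247 ± 748 CPM in single culture (SD, n = 3 each), a 1.82-fold difference with a log2 fold change of 0.86 (SE 0.16, adjusted p = 0.0334, edgeR's quasi-likelihood test with Benjamini-Hochberg adjustment over 179 sequences). In that table of summed forms, 5 of 179 sequences were higher at an adjusted p under 0.05, or 2.79%. Among those 179 sequences, 34, or 19%, had groups that did not overlap with co-culture higher. Without single culture libraries 2 and 3, the log2 fold change was 0.60.

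Most of these tags were the trimmed form, chr17_7541, which ranked 18 of 463 by mean level. It had 1257, 2185 and 1516 tags in co-culture libraries and 1020, 157 and 166 tags in single culture libraries. As CPM these were 4869, 5817 and 5375 in co-culture and 3357, 2433 and 2459 in single culture, with no overlap of the groups. Means were 5354 ± 475 CPM in co-culture and 2750 ± 526 CPM in single culture (SD, n = 3 each). chr17_7541 rose 1.94-fold, with a log2 fold change of 0.96 (SE 0.17, adjusted p = 0.0275 from edgeR over 182 sequences). Of the 182 sequences tested with forms apart, 4, or 2.2%, were higher past the threshold, and 8, 4.4%, passed in either direction. The log2 fold change was 0.67 without single culture libraries 2 and 3.

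Annotated miR-10a-5p, the full 23-base form, ranked 26 by mean level. It had 613, 874 and 612 tags in co-culture libraries and 532, 86 and 95 tags in single culture libraries. Its CPM was 2374.5, 2327 and 2170 in co-culture, against 1751, 1333 and 1407 in single culture. Means were 2290 ± 107 CPM in co-culture and 1497 ± 223 CPM in single culture (SD, n = 3 each). The groups did not overlap, but the log2 fold change of 0.61 (SE 0.14) did not pass the adjusted threshold (adjusted p = 0.0609 from edgeR). It passed in 5 of 16 alternatives: without single culture library 1 (log2 fold change 0.72, adjusted p = 0.00121), with no minimum count (adjusted p = 0.0213), with a minimum of 50 counts (0.0182), with known microRNAs and the miR-10 forms only (0.0147) and in DESeq2 (0.0347). Its log2 fold change was 0.39 without single culture libraries 2 and 3.

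miR-10b-5p, from the HOXD cluster, was far less abundant and, with its forms summed, was also higher in co-culture under TMM scaling. Both forms together had 147, 192 and 174 CPM in co-culture libraries, against 88.9, 62.0 and 59.2 CPM in single culture libraries. The groups did not overlap, and means were 171 ± 22.4 CPM in co-culture and 70.0 ± 16.4 CPM in single culture (SD, n = 3 each). The difference was 2.24-fold, with a log2 fold change of 1.16 (SE 0.23, adjusted p = 0.0404 from edgeR). The whole measurement rested on 159 tags in co-culture and 35 in single culture. Single culture libraries 2 and 3 held 4 tags each, and only 1 single culture library had 10 tags. The summed forms thus met the minimum of 10 tags in 3 libraries through the co-culture group. Their adjusted p is not independent of that filter. Without single culture libraries 2 and 3 the log2 fold change was 0.97.

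Counted apart, neither form of miR-10b-5p passed. The trimmed form, chr2_13876, had 26, 54 and 37 tags in co-culture and 20, 4 and 2 tags in single culture, or 101, 144 and 131 CPM against 65.8, 62.0 and 29.6 CPM. Its groups did not overlap, with a log2 fold change of 1.12 (SE 0.29, adjusted p = 0.0609 from edgeR). Annotated miR-10b-5p had 12, 18 and 12 tags in co-culture and 7, 0 and 2 tags in single culture, with a log2 fold change of 1.15 (SE 0.47, adjusted p = 0.188 from edgeR). Both met the minimum of 10 tags in 3 libraries through the co-culture group, since 0 single culture libraries had 10 tags of miR-10b-5p and 1 had 10 tags of chr2_13876. Without single culture libraries 2 and 3 the log2 fold changes were 0.94 for chr2_13876 and 0.98 for miR-10b-5p. Over all tested sequences, groups that did not overlap with co-culture higher were found for 36 of 182, or 19.8%, which is the background for the forms counted apart.

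**Figure D1:**
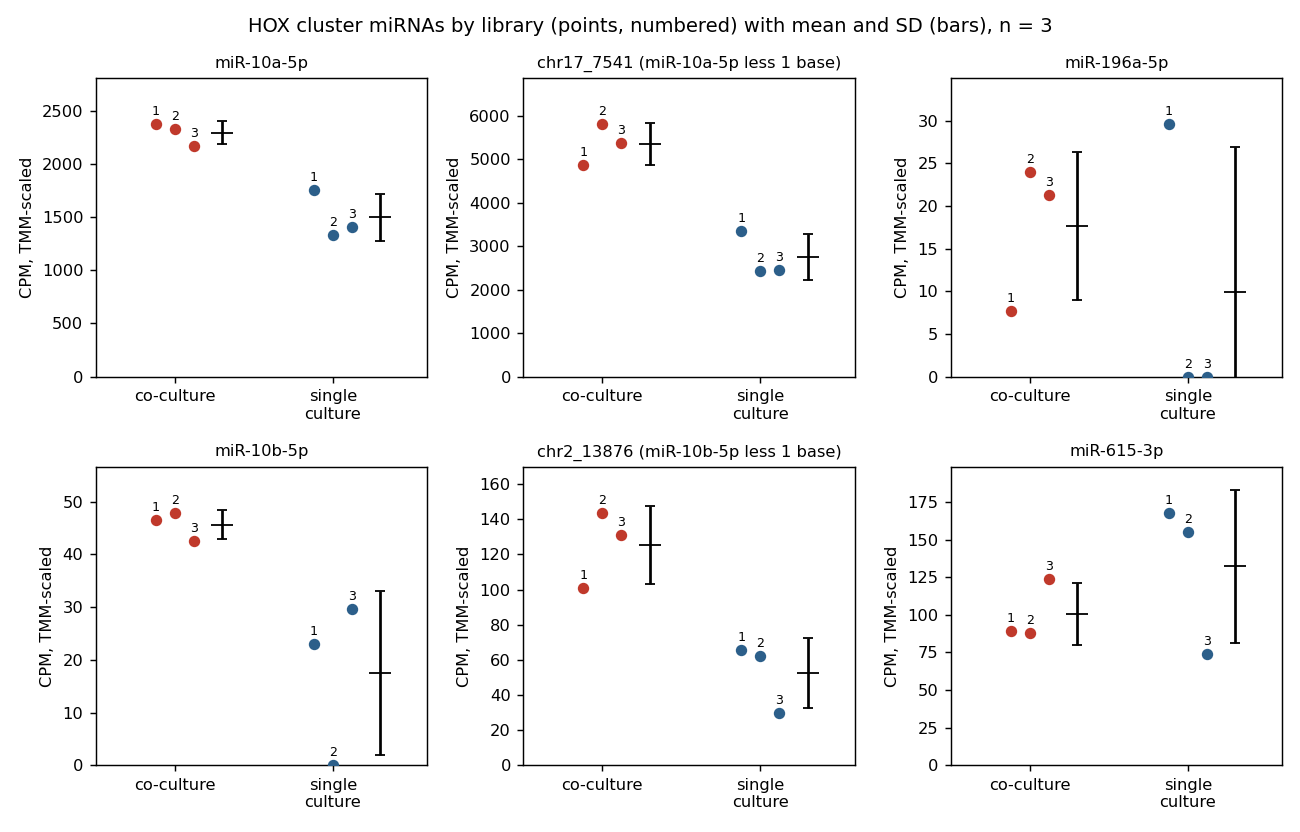
CPM (TMM-scaled, linear axes from 0, 1 panel a sequence) of the miR-10 sequences, miR-196a-5p and miR-615-3p, with 1 numbered point a library, co-culture in red left of single culture in blue, and the group mean with SD in black (n = 3 each). The miR-10 sequences are higher in all 3 co-culture libraries, while miR-196a-5p (7.75 to 24.0 CPM in co-culture, 0 to 29.6 CPM in single culture) and miR-615-3p overlap.

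**Figure D2:**
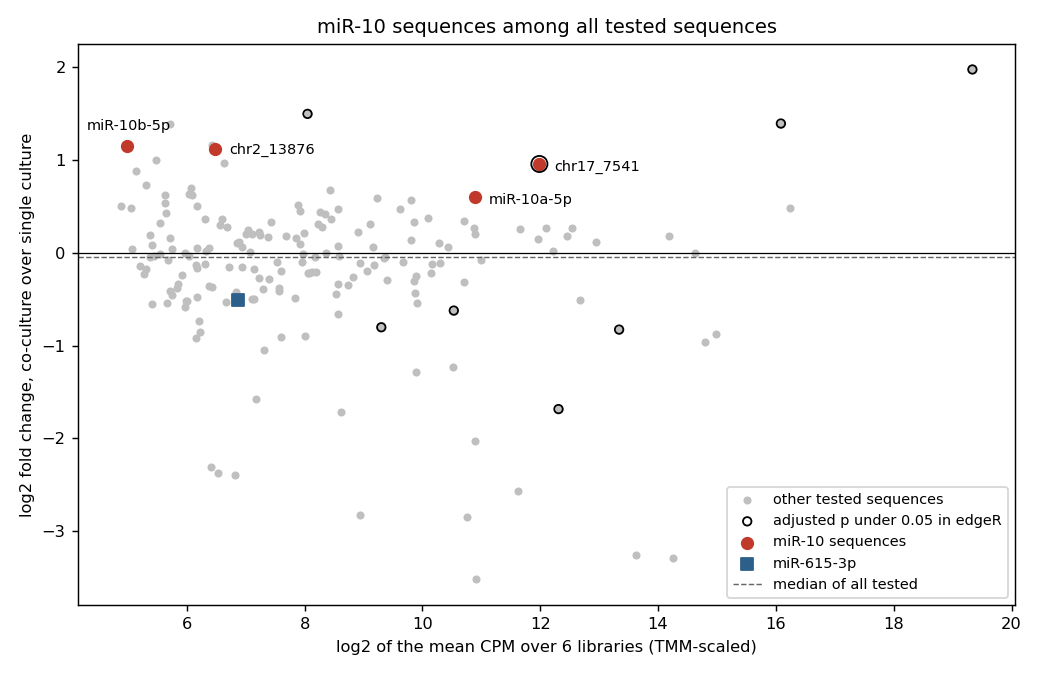
Log2 fold change of co-culture over single culture against log2 of the mean CPM for the 182 tested sequences. Red points are the miR-10 sequences and the blue square is miR-615-3p, black rings mark an adjusted p under 0.05 in edgeR, and the dashed line is the median of all tested sequences, -0.041.

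These calls depended on the scaling and on single libraries. With library size alone, under which the median over the 182 tested sequences was -1.11 on the log2 scale, beside -0.041 under TMM, the log2 fold changes were -0.22 for miR-10a-5p summed, 0.082 for miR-10b-5p summed and -0.11 for chr17_7541, and none passed. Leaving out any 1 library other than single culture library 1 ended the 3 calls as well (adjusted p 0.0754 to 0.134 for miR-10a-5p summed, 0.0754 to 0.154 for miR-10b-5p summed and 0.0577 to 0.113 for chr17_7541), with log2 fold changes still positive. The 3 calls also ended with limma on the authors' normalized values and with the miR-21 sequences left out, where chr17_7541 had log2 fold changes of 0.60 (adjusted p = 0.491) and 1.00 (adjusted p = 0.0549, edgeR).

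The unscaled shares give the same tags another way. Both forms of miR-10a-5p made up 0.575%, 0.506% and 0.504% of all tags in co-culture libraries and 0.742%, 0.553% and 0.549% in single culture libraries, so the groups overlapped. Both forms of miR-10b-5p made up 0.0117%, 0.0119% and 0.0116% of tags in co-culture and 0.0129%, 0.00910% and 0.00842% in single culture, which overlapped too. Relative to all tags, neither microRNA was higher in every co-culture library. A share of all tags also depends on the other sequences in the total. The tested sequence with the highest mean level, named chr17_6906 by the authors (log2 mean CPM 19.3), is in that total. Under TMM chr17_6906 was higher in co-culture (log2 fold change 1.97, adjusted p = 0.0074 from edgeR). Its part in these shares, and in the values with library size alone, was not tested.

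**Figure D3:**
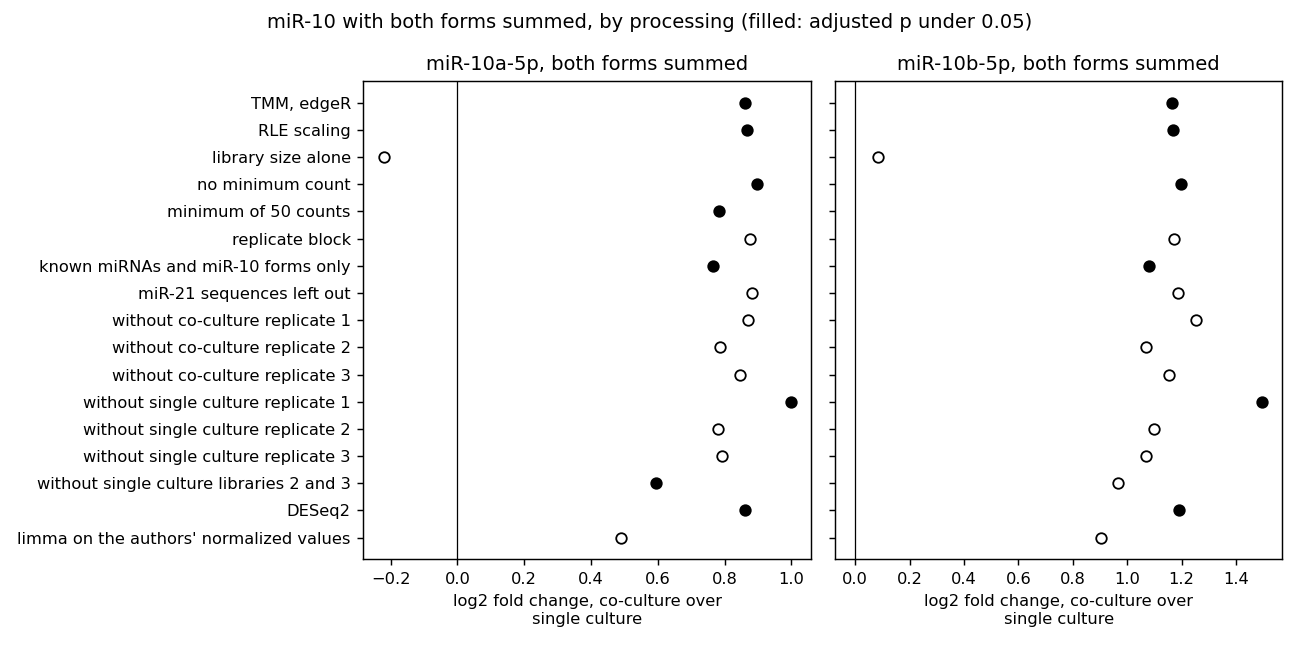
Log2 fold change of co-culture over single culture for miR-10a-5p and miR-10b-5p, both forms summed, under each processing alternative. Filled points passed an adjusted p of 0.05. With library size alone miR-10a-5p stands at -0.22 and miR-10b-5p at 0.082, the lowest value of each, and every other value lies above 0.

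Ratios within a library do not depend on the scaling between libraries, and 8 were compared. With 3 libraries against 3, an exact two-sided permutation test cannot give a p below 0.1, so none could pass 0.05. The trimmed form took 67.2% (95% exact interval 65.0% to 69.3%), 71.4% (69.8% to 73.0%) and 71.2% (69.3% to 73.2%) of miR-10a-5p tags in co-culture libraries. In single culture libraries it took 65.7% (63.3% to 68.1%), 64.6% (58.2% to 70.6%) and 63.6% (57.4% to 69.4%). The intervals cover counting error only. Every co-culture library was higher, but the interval of single culture library 2 overlapped those of all 3 co-culture libraries. The log2 ratio of trimmed to annotated tags averaged 1.22 ± 0.16 in co-culture and 0.87 ± 0.068 in single culture, a difference of 0.35 (exact permutation p = 0.1, adjusted over the 8 ratios 0.114). The difference was 0.28 without single culture libraries 2 and 3.

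A difference in the same direction stood in the other pair of forms with enough tags, miR-221-3p and its form with 1 base fewer. The forms themselves moved otherwise under TMM. Annotated miR-221-3p was lower in co-culture (log2 fold change -0.62, adjusted p = 0.0279 from edgeR) and its trimmed form differed by 0.14 (adjusted p = 0.803 from edgeR). For miR-10a-5p, both forms had positive log2 fold changes. The trimmed form of miR-221-3p took 44.0%, 46.4% and 43.5% of that pair's tags in co-culture and 33.8%, 32.7% and 29.2% in single culture, a log2 difference of 0.78 (exact permutation p = 0.1), or 0.66 without single culture libraries 2 and 3. For miR-10b-5p the forms gave no such order: 26 of 38, 54 of 72 and 37 of 49 tags were trimmed in co-culture, against 20 of 27, 4 of 4 and 2 of 4 in single culture (log2 difference -0.13, exact permutation p = 0.9, and -0.041 without single culture libraries 2 and 3). A difference in the miR-10b-5p forms was not detectable at this depth.

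miR-10a-5p outnumbered miR-10b-5p in every library, by 49.2, 42.5 and 43.4 to 1 in co-culture and by 57.5, 60.75 and 65.25 to 1 in single culture. miR-10b-5p took 1.99% (95% exact interval 1.41% to 2.72%), 2.30% (1.80% to 2.89%) and 2.25% (1.67% to 2.96%) of the miR-10 tags in co-culture. In single culture it took 1.71% (1.13% to 2.48%), 1.62% (0.443% to 4.09%) and 1.51% (0.413% to 3.82%). All 3 co-culture shares were above all 3 single culture shares, yet the intervals overlapped throughout. The miR-10a-5p percent was 97.8 ± 0.17 in co-culture and 98.4 ± 0.10 in single culture, a difference of -0.57 percentage points (exact permutation p = 0.1), or -0.47 without single culture libraries 2 and 3. Within the annotated forms alone and within the trimmed forms alone the groups overlapped (differences of -0.83 and -0.41 points, exact permutation p = 0.4 for both).

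Relatives of miR-10 in sequence, and let-7a-5p for the let-7-like start of miR-196, were set beside it. miR-100-5p, encoded outside the HOX clusters, was the second most abundant listed sequence, with 90150 ± 7899 CPM in co-culture and 64519 ± 10671 CPM in single culture (log2 fold change 0.48, adjusted p = 0.123 from edgeR). On the log2 scale miR-125b-5p differed by 0.47, miR-99b-5p by 0.25 and miR-125a-5p by -0.52. Of these 4 relatives, 0 passed the adjusted threshold in edgeR and 0 in DESeq2, and 1, miR-100-5p, had an unadjusted p under 0.05 in edgeR. Their median log2 fold change was 0.36, beside -0.041 over all tested sequences. With library size alone all 4 passed and were lower, with log2 fold changes of -1.59 to -0.58. Without single culture libraries 2 and 3 the values were 0.23 for miR-100-5p, 0.20 for miR-125b-5p, 0.11 for miR-99b-5p and -0.53 for miR-125a-5p. let-7a-5p differed by 0.26 (adjusted p = 0.322 from edgeR), or 0.011 without those libraries, and with library size alone it passed at -0.79. miR-99a-5p was not listed.

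Against miR-100-5p within each library, both forms of miR-10a-5p had 81.7, 82.5 and 90.8 tags per 1000 miR-100-5p tags in co-culture, against 66.6, 62.6 and 68.2 in single culture. This log2 difference was 0.37 (exact permutation p = 0.1). miR-10b-5p had 1.66, 1.94 and 2.09 tags per 1000 in co-culture, against 1.16, 1.03 and 1.04 in single culture. That log2 difference was 0.70 (exact permutation p = 0.1). The miR-10b-5p ratios rest on 38, 72 and 49 tags in co-culture and 27, 4 and 4 in single culture. Counting error is therefore large in single culture libraries 2 and 3, whatever the denominator. Against let-7a-5p the log2 differences were 0.57 for miR-10a-5p and 0.91 for miR-10b-5p (exact permutation p = 0.1 for both). All 4 of these ratios were higher in each co-culture library than in each single culture library. Adjusted over the 8 ratios, their p was 0.114. The 4 ratios reuse the same tags and were added after seeing the data, so they are not separate results. Their direction was the same with both denominators, but their size rests on the denominator chosen. Under TMM, miR-100-5p and let-7a-5p had log2 fold changes of 0.48 and 0.26, below those of summed miR-10. No ratio was taken to a microRNA outside the set with a larger log2 fold change than summed miR-10. The log2 differences against miR-100-5p were 0.35 for miR-10a-5p and 0.69 for miR-10b-5p without single culture libraries 2 and 3, and those against let-7a-5p were 0.57 for miR-10a-5p and 0.91 for miR-10b-5p.

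**Figure D4:**
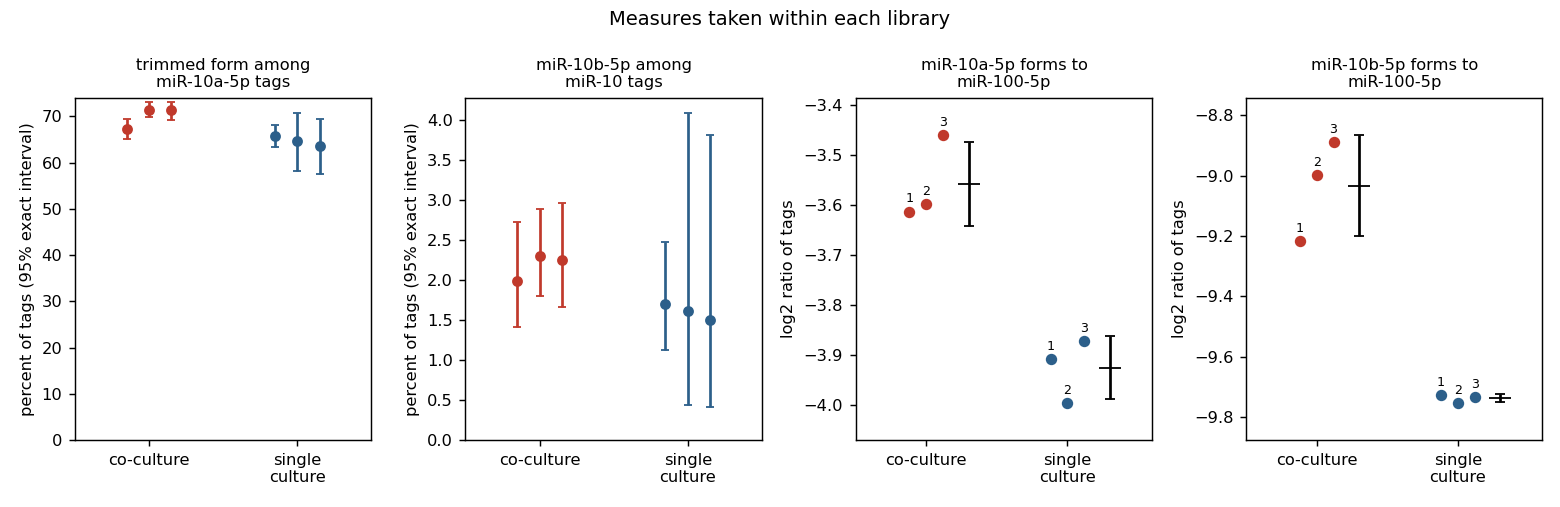
Measures within each library, 1 point a library, co-culture in red left of single culture in blue: the percent of tags with its 95% exact interval in the first panels, and the log2 ratio of miR-10 tags to miR-100-5p tags with the group mean and SD in black (n = 3 each) in the others. Points of all 3 co-culture libraries lie above those of all 3 single culture libraries in every panel, while percent intervals of single culture library 2 overlap those of all 3 co-culture libraries.

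miR-196a-5p, whose genes lie in HOXB and HOXC, was near the listing limit. It had 2, 9 and 6 tags in co-culture libraries and 9, 0 and 0 tags in single culture libraries. As CPM these were 7.75, 24.0 and 21.3 in co-culture and 29.6, 0 and 0 in single culture, so the groups overlapped. It fell below the minimum count and was not tested, and no fold is given. The smallest listed count was 2, which equals 31.0 and 29.6 CPM in single culture libraries 2 and 3, above each co-culture level. A difference in miR-196a-5p was therefore not detectable at this depth. An entry of 0 stands for 0 or 1 tag.

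The unlisted arms set upper limits. With at most 1 tag a library, miR-10a-3p can have made up at most 0.0425% of the tags of its hairpin in co-culture and 0.146% in single culture. For miR-10b-3p, the limits were 1.85% in co-culture and 7.89% in single culture. These limits cover the listing rule, not sequences lost before the table was made. miR-196b-5p, from the HOXA cluster, was not listed in any library.

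Of 6 other mature microRNAs of the HOX clusters, 1 was listed. miR-615-3p, from an intron of HOXC5 and HOXC4 at chr12:54033950-54034045, had 89.1, 87.9 and 124 CPM in co-culture, against 168, 155 and 74.1 CPM in single culture. The groups overlapped, and the log2 fold change was -0.51 (SE 0.30, adjusted p = 0.322 from edgeR). It did not pass in edgeR or DESeq2, and its unadjusted p was 0.134. With library size alone it passed, at -1.57, and without single culture libraries 2 and 3 its log2 fold change was -0.75. miR-196a-3p, miR-196b-3p, miR-615-5p, miR-7704 and miR-3185 were not listed.

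The known sequences, other than the miR-10 forms, whose levels tracked the trimmed miR-10 forms most closely are given here. They are a description over 6 libraries, which share scaling and depth. log2 CPM of chr17_7541 correlated with miR-21-5p at r = 0.998, miR-21-3p at 0.972 and miR-30e-3p at 0.969. For chr2_13876 the closest were miR-127-3p at r = 0.999, miR-99b-3p at 0.958 and miR-125b-5p at 0.953. These are the highest values among the known tested sequences other than the miR-10 forms. Annotated miR-10a-5p correlated with chr17_7541 at 0.975. With 4 and 2 tags in single culture libraries 2 and 3, the levels of chr2_13876 there carry large counting error. The log2 fold change of miR-127-3p was 0.34, beside 1.12 for chr2_13876. The 2 trimmed forms correlated with each other at 0.920.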

How the data were processed

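Small RNA of LX-2 cells was sequenced by Illumina chemistry. Bowtie 0.12.2 and the builds hg18 and mm8 are named in the submitters' processing notes, without a role. The tag counter and its filters are not given in the sources used here. Deposited by the authors were raw tag counts per mature microRNA and a normalized tag signal, scaled by a rule that is not stated. Their fold changes and p-values were not used.

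The numbered columns carry no sample title. Their groups were taken from the named mean columns: the authors' group means equal the means of the normalized values plus 1 over these columns (within 1e-05) in 520 of 520 rows, against 14 for the other group's columns. No sample list supports this, only these values. A library number here is the column's and may not be the sample title's. There were 0 columns without a group.

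Rows were merged by sequence to 463. edgeR 4.0.16 in R 4.3.3 was fitted to the counts with TMM scaling, no block, and a minimum of 10 tags in 3 libraries (182 sequences tested, or 179 with trimmed forms summed). Standard errors (SE) were obtained from each log2 fold change and the t value that its p implies. Ratios within a library were compared with 0.5 tags added to each form for the form ratios (scipy 1.17.1). Alternatives included DESeq2 1.42.0 and limma 3.58.1. The pipeline was tested on simulated data with balanced rises and falls and a lower minimum count, which does not probe the dependence on scaling. Coordinates are those of GENCODE release 29 on GRCh38.

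The microRNAs, the lists and the rule for the named microRNAs (the set, the other HOX cluster microRNAs, the relatives, and the 3 known sequences of closest pattern) were chosen with earlier results of these data known. miR-21 removal and the ratios to miR-100-5p and let-7a-5p were added after seeing the data, as were the values of the relatives and the ratios without single culture libraries 2 and 3.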

Additional observations from a re-analysis of the deposited data

How the results depend on the processing

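In edgeR, 8 sequences had an adjusted p under 0.05. This number was 140 with library size alone, 37 with no minimum count, 21 with a minimum of 50 counts, 1 with the miR-21 sequences left out, 22 with DESeq2, and 0 to 43 with 1 library left out (0 without co-culture library 2 and 0 without library 3, 43 without single culture library 1). It was 13 without single culture libraries 2 and 3, a fit with 1 single culture library, whose spread is assumed to be that of the co-culture libraries.

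miR-10a-5p summed (log2 fold change 0.86) turned to -0.22 with library size alone and did not pass with the miR-21 sequences left out (0.88) or with limma on the authors' normalized values (0.49). It ranged from 0.78 to 1.00 with 1 library left out. miR-10b-5p summed (1.16) did not pass with library size alone (0.082), with the miR-21 sequences left out (1.19) or with limma (0.90), and ranged from 1.07 to 1.50 with 1 library left out. Its value was 0.97 without single culture libraries 2 and 3. It had no value with a minimum of 50 counts. Both passed in DESeq2, where miR-10b-5p summed again met the minimum count through the co-culture group. miR-10a-5p and chr17_7541 counted apart turned to -0.45 and -0.11 with library size alone. Of 59 values of the 4 miR-10 sequences under alternatives, 57 were positive. The alternatives reuse the same libraries and the sequences are correlated, so this count is not a measure of support. The 2 negative values both came with library size alone, where miR-10b-5p and chr2_13876 counted apart stood at 0.090 and 0.045. The miR-10a-5p percent differed by -0.83 points over annotated forms and -0.41 over trimmed forms (exact permutation p = 0.4 for both). The log2 form ratio of miR-10b-5p ranged from -0.90 to 0.68 with 1 library left out, and had no value with no tags added.

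Same-numbered libraries deviated with correlations of -0.356, -0.115 and -0.212. These values cannot decide whether the cultures were paired, because a column number may not be the sample title's number. With the column number as a replicate block, 0 sequences passed. In that fit miR-10a-5p summed and miR-10b-5p summed had log2 fold changes of 0.88 and 1.17 (adjusted p = 0.205 for both, edgeR). chr17_7541 had 0.97 (adjusted p = 0.211, edgeR).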
